A study of Mus musculus with 6 samples.

Results

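The 32 genes described here encode the antioxidant enzymes of the cell, the regulators Nfe2l2 and Keap1, and targets of the transcription factor Nrf2. They were chosen by symbol, and all 32 were found among the 35673 gene symbols of the deposited count table. Transcript levels were measured by RNA sequencing of mouse cornea in 6 libraries, 3 titled Control and 3 titled Cationorm. The mice were male C57BL/6J animals of 6 to 8 weeks. Cationorm is a cationic oil-in-water eye drop, given at 5 µL per eye for 14 days. The contact lens dry eye model combined drops of 0.1% benzalkonium chloride, an irritant preservative, with lens wear of 6 h per day. All 6 libraries carry the same dry eye condition tag and the same wild-type tag, so the labels leave unsettled whether the Control libraries came from untreated mice or from an arm of the model. Control is therefore used here only as the name in the titles.

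Nrf2, the product of Nfe2l2, is held in the cytoplasm by Keap1 and degraded. Oxidants and electrophiles modify Keap1, and Nrf2 then enters the nucleus, pairs with a small Maf protein and binds antioxidant response elements. Its targets make glutathione and thioredoxin, conjugate lipid aldehydes and quinones, and store iron. Superoxide dismutases turn superoxide into hydrogen peroxide, which catalase, glutathione peroxidases and peroxiredoxins remove. The cornea is exposed to light and oxygen, and most of these enzymes work inside its cells. Sod3 and Gpx3 encode enzymes that are secreted.

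Promoter sequences are shown to place the members beside the elements that Nrf2 and ATF4, a stress-induced activator of amino acid transporter genes, are known to bind. RefSeq promoters on GRCm38.p6, from 250 bases before to 50 bases after each start, were present for 26 of the 32 members. The core of the antioxidant response element was searched as TGACNNNGC on both strands and was found in 6 of these 26 members (23.08%). In all promoters of the table it was found in 13.99% of 27025 genes. The matches are printed on the strand of the gene with the core in capitals.
Nfe2l2 (chr2:75704885-75704913, minus strand): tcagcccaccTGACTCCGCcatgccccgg
Gclm (chr3:122245413-122245441, plus strand): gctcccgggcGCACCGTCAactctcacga
Prdx1 (chr4:116685456-116685484, plus strand): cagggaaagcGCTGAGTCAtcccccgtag
Sod1 (chr16:90220696-90220724, plus strand): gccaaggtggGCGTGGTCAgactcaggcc
Txnrd1 (chr10:82859104-82859132, plus strand): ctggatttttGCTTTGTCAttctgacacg
Srxn1 (chr2:152105542-152105570, plus strand): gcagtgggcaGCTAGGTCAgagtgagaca

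The ATF4 core, searched as TGATGNAA on both strands, was found in 1 of the 26 members with a promoter (3.846%), Slc7a11. In all promoters it was found in 4.511% of 27025 genes, so the members were near the share over all genes. In Slc7a11 it was present 2 times on opposite strands, 66 and 47 bases before the start. Promoters with 2 or more matches made up 0.07001% of the 32851 promoters in the table (23 promoters), and 3.969% had at least 1. The 250 bases before the start of Slc7a11 are shown with both matches in capitals. Those of Gpx3, the member with the largest difference between the groups, are shown beside them and hold neither the Nrf2 nor the ATF4 letters, nor a TATA box (TATAAA). A match is a description of letters and not of binding.
Slc7a11 (chr3:50443614-50443863, minus strand): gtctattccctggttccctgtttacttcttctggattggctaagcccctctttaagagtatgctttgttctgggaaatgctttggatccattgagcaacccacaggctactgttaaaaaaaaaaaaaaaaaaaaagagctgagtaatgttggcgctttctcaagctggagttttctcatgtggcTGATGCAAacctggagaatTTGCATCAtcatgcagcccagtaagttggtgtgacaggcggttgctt
Gpx3 (chr11:54902604-54902853, plus strand): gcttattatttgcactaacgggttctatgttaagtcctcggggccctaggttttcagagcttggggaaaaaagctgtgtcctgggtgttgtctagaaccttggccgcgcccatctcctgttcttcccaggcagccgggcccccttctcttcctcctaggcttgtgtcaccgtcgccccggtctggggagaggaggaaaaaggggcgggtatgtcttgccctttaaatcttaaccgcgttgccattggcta

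Library totals ran from 32486043 to 39193311 counts. Levels below are counts scaled to library size with TMM factors (CPM), given for libraries 1, 2 and 3 of a group in that order. A difference is the log2 fold change of Cationorm over Control with its standard error (SE) from edgeR's quasi-likelihood test. The corneal epithelium markers, Krt12 and Krt5 among them, summed to between 55612 and 62086 CPM in every library, so the labelled tissue was present. Retina markers summed to between 2096 and 8134 CPM and lens markers to between 81.8 and 6240 CPM, so neighbouring eye tissue was present in amounts that differed between libraries. In bulk tissue, fewer cells of a type and less RNA per cell cannot be told apart. The labels do not tie replicates to different mice, and a p-value here speaks only of the spread among these libraries, which may be technical.

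Most of the antioxidant genes had a small estimated difference between the groups, and a small set was higher in Cationorm. Of the 32 members, 25 had a log2 fold change within 0.2 of 0 (78.1%, against 61.1% of all genes tested). These shares were not matched for expression level, and fold changes of genes with few counts scatter more. The members outside that range were Sod3, Gpx3, Slc7a11, Hmox1, Gstm1 and Ftl1, which were higher, and Gclc, which was lower. Some members inside it had a wide 95% interval, such as Gpx2 (-1.97 to 1.66), so similar levels are not established for each. In all, 23 members were higher and 9 lower, with a median log2 fold change of 0.06, beside 51.2% higher and a median of 0.0055 over the 18804 genes tested.

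No member passed the edgeR test after Benjamini-Hochberg adjustment over all genes (smallest adjusted p = 0.550), and neither did any other gene (0% called). At an unadjusted p under 0.05 there were 6 members higher, Sod3, Gpx3, Slc7a11, Ftl1, Gstm1 and Gstp1, where 5.16% of all genes were higher. The 1 member lower at that level was Gclc, where 3.57% of all genes were lower. Every Cationorm library was above every Control library in 7 members, Sod3, Gpx3, Slc7a11, Ftl1, Fth1, Gstp1 and Srxn1, against 8.73% of all genes. The opposite order, found in 6.09% of all genes, was seen in 0 members. DESeq2 called 2 of the 31 members to which it gave an adjusted p, both higher: Sod3 (adjusted p = 0.00513) and Slc7a11 (adjusted p = 0.0493). Over all genes it called 0.382% higher and 0.0453% lower. Limma-voom called 0 genes, with 7 members at an unadjusted p under 0.05 in either direction, beside 2062 of the 18804 genes.

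**Figure D1:**
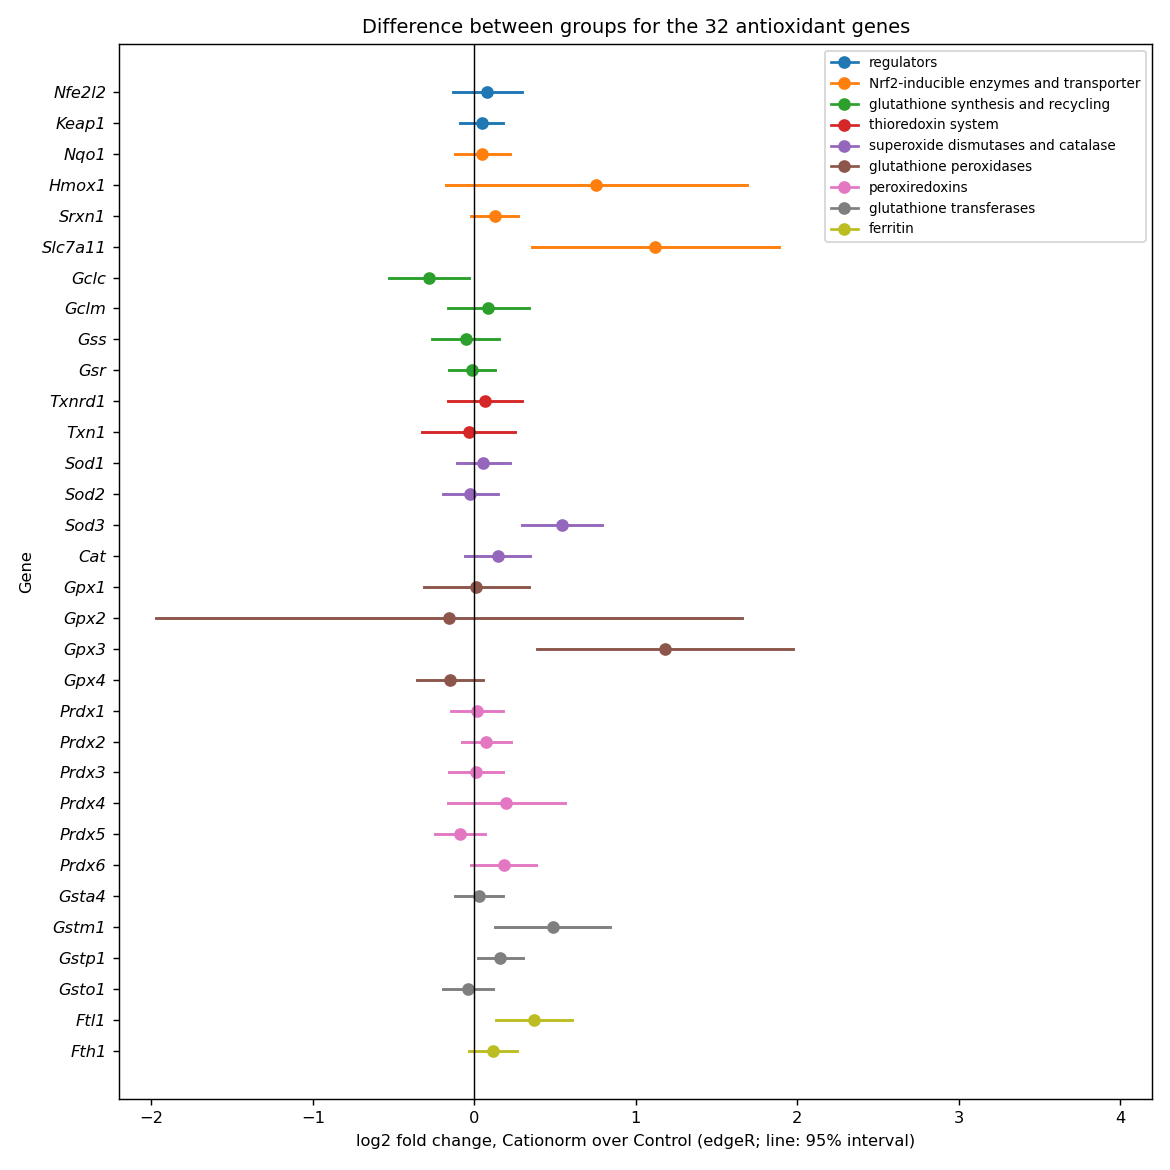
Log2 fold change of Cationorm over Control for each of the 32 genes (x axis), grouped and coloured by role (y axis), with points for the edgeR estimate and lines for its 95% interval. Gpx3 and Slc7a11 lie furthest to the right, followed by Hmox1, whose interval crosses 0, and Sod3, whose interval does not, while Gclc lies to the left and most other points lie within 0.2 of 0.

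The members spanned a wide range of levels. Levels between genes were compared per kilobase of the principal transcript in the GRCm38 annotation. The glutathione transferases Gsto1 and Gsta4 were far above all others, at 11614 ± 634 and 3922 ± 103 CPM per kilobase in Control (SD, n = 3) and 11299 ± 448 and 3994 ± 227 in Cationorm. These 2 genes held between 1.62% and 1.86% of all counts of a library, whereas the other 30 members together held between 0.394% and 0.446%. Next came the ferritin heavy chain gene Fth1 at 550 ± 5.85 CPM per kilobase in Control. Prdx6, Prdx5, Gpx4 and Txn1 followed at between 217 and 296 CPM per kilobase in Control, where the order of neighbours depends on the transcript length used. At the low end were Gpx2 and Slc7a11, at 0.805 ± 0.572 and 0.423 ± 0.158 CPM per kilobase in Control, which did not differ beyond their spread.

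**Figure D2:**
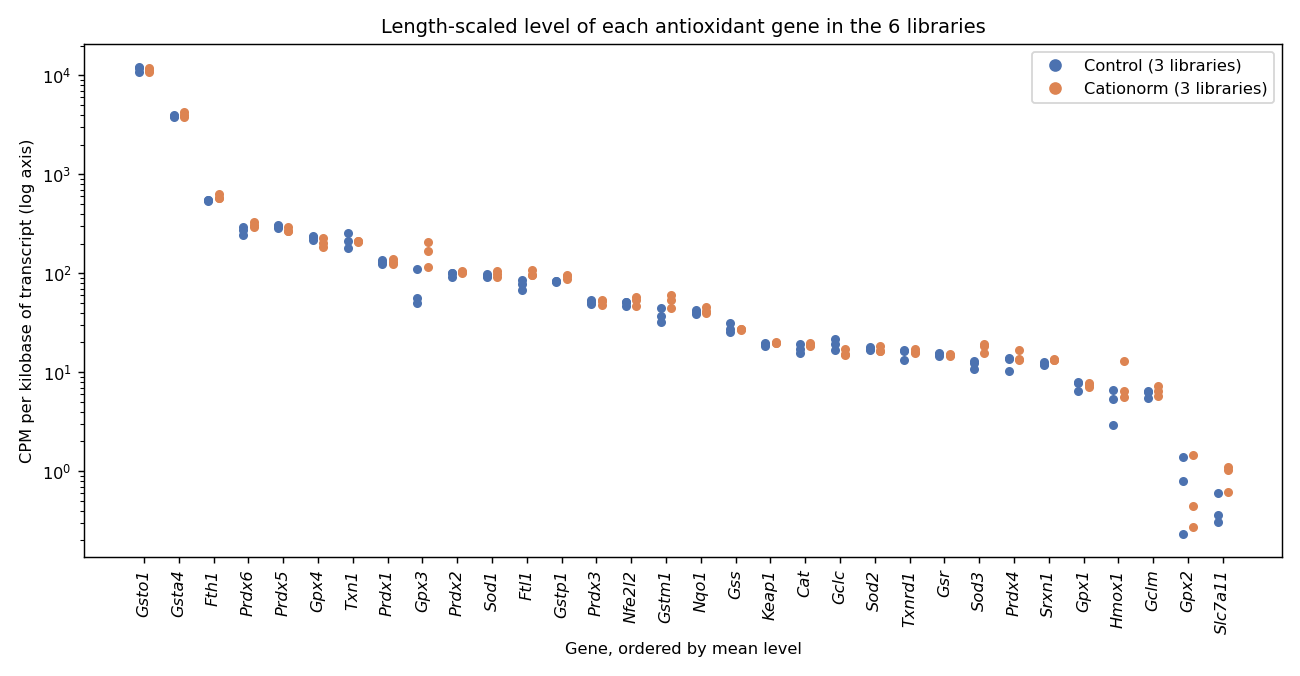
Level of each of the 32 genes in CPM per kilobase of transcript (y axis, log scale), ordered by mean level (x axis), with 1 point per library and the groups side by side. Gsto1 and Gsta4 stand above the rest, Gpx2 and Slc7a11 below, and the groups overlap for most genes.

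The regulators among the members differed between the groups by less than the SE of the difference. Nfe2l2, which encodes Nrf2, was at 128, 115 and 127 CPM in Control and at 143, 132 and 117 CPM in Cationorm. Keap1, its inhibitor, was at 69.7, 66.9 and 71.4 CPM in Control and at 71.0, 72.4 and 71.1 CPM in Cationorm. The groups overlapped for both genes. The differences were 0.08 ± 0.09 (SE) for Nfe2l2 and 0.04 ± 0.06 for Keap1, with 95% intervals of -0.13 to 0.29 and -0.09 to 0.18. Part of the Keap1 exon sequence (10.87%) overlaps an antisense gene, and the strand setting of the counts is not given in the sources used here.

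Of the 4 inducible genes outside the glutathione and thioredoxin enzymes, Slc7a11 had the largest difference. It encodes the light chain of the cystine and glutamate exchanger, which brings in cystine for glutathione synthesis. Slc7a11 was at 2.80, 3.35 and 5.55 CPM in Control and at 9.55, 10.2 and 5.66 CPM in Cationorm. The groups did not overlap, although Control 3 and Cationorm 3 were nearly equal. The log2 fold change was 1.12 ± 0.33 (SE), a 2.17-fold higher level with a 95% interval of 1.28 to 3.70 (edgeR adjusted p = 0.550). Its promoter is the one printed above with the pair of ATF4 letters, and a part of ATF4 in the difference was not tested.

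The heavy chain of the same exchanger, Slc3a2, was also higher in every Cationorm library. It was at 106, 117 and 126 CPM in Control and at 152, 143 and 135 CPM in Cationorm, a log2 fold change of 0.30 ± 0.08 (SE). Slc7a11 is also known in pigment cells, where imported cystine goes into the red and yellow pigment. The 12 melanocyte, iris and ciliary body markers were all higher in Cationorm (median log2 fold change 0.96), with 0 past the edgeR threshold. No gene passed that threshold, while DESeq2 called Best2 (adjusted p = 2.16e-06) and Col9a2 (adjusted p = 0.0324) among these markers. DESeq2 called none of the others, the pigment genes Dct (adjusted p = 0.389) and Oca2 (adjusted p = 0.101) among them. The summed level of the 12 markers was 505, 438 and 1078 CPM in Control and 1523, 1240 and 1201 CPM in Cationorm. None of the 12 was at 0 in any library. Control 3 was the highest of its group and Cationorm 3 the lowest of its group both in this sum and in Slc7a11. The part of these cells in the Slc7a11 difference was not tested.

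Nqo1, Srxn1 and Hmox1 are the members most often read as Nrf2 targets. Nqo1, a quinone reductase, was at 65.5, 60.5 and 63.3 CPM in Control and at 70.2, 64.3 and 61.2 CPM in Cationorm, with overlapping groups (0.05 ± 0.07 SE, 95% interval -0.12 to 0.22). Srxn1, which repairs overoxidised peroxiredoxins, was at 35.8, 33.5 and 34.4 CPM in Control and at 37.6, 37.7 and 37.9 CPM in Cationorm. Its groups did not overlap, but the difference was small (0.13 ± 0.06 SE). Hmox1, the inducible heme oxygenase, was at 4.58, 10.3 and 8.43 CPM in Control and at 8.85, 10.03 and 20.3 CPM in Cationorm. Its groups overlapped, and Cationorm 3 alone stood above the Control range. The log2 fold change of Hmox1 was 0.75 ± 0.40 (SE) with all libraries and 0.29 without Cationorm 3. The leukocyte and macrophage markers, from cells that are known to express Hmox1, summed to 99.4, 154 and 129 CPM in Control and to 128, 125 and 128 CPM in Cationorm. That sum was lowest in Control 1 and, within Control, highest in Control 2, as for Hmox1, but its highest library of all was not Cationorm 3. Lens markers summed to 81.8, 3123 and 2566 CPM in Control and to 1666, 3703 and 6240 CPM in Cationorm, lowest in Control 1 and highest in Cationorm 3 as for Hmox1. The part of lens or other cells in the Hmox1 values was not tested.

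Among the enzymes of glutathione synthesis and recycling, the largest difference was a lower level of Gclc in Cationorm. Gclc, the catalytic subunit of the rate-limiting ligase, was at 65.8, 73.5 and 57.6 CPM in Control and at 59.0, 52.0 and 50.9 CPM in Cationorm. The groups overlapped, since Cationorm 1 was above Control 3. The log2 fold change was -0.28 ± 0.11 (SE), with a 95% interval of -0.53 to -0.03 (edgeR adjusted p = 0.550). Gclm, the modifier subunit of the same ligase, was at 30.7, 35.6 and 36.1 CPM in Control and at 40.3, 36.3 and 32.2 CPM in Cationorm (0.09 ± 0.11 SE). The Gclm difference was within its error and was 0.00396 without Cationorm 1 and 0.0158 without Control 1. The ratio of the subunits within a library (Gclm over Gclc) was 0.467, 0.485 and 0.627 in Control and 0.683, 0.697 and 0.633 in Cationorm. That ratio did not overlap between the groups, with Control 3 and Cationorm 3 again close. Glutathione synthetase (Gss) and glutathione reductase (Gsr) had log2 fold changes of -0.05 ± 0.09 and -0.01 ± 0.06 (SE), and opposite-strand genes overlap Gss exons.

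Among the superoxide dismutases, the secreted enzyme had the largest difference and the cellular enzymes lay close to 0. Sod3, which binds to matrix and is known to be made by vascular smooth muscle, was at 40.6, 48.8 and 46.9 CPM in Control. It was at 71.8, 68.8 and 58.2 CPM in Cationorm, so that the groups were clearly apart. The log2 fold change was 0.54 ± 0.11 (SE), a 1.46-fold higher level with a 95% interval of 1.23 to 1.73. It had the smallest unadjusted p of the members (0.00123) in the edgeR fit, with an adjusted p of 0.550. Without Cationorm 3 the value was 0.63 and edgeR called it (adjusted p = 0.0362). That fit called 350 genes in all, 15 higher and 335 lower.

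Sod1, the cytosolic copper and zinc enzyme, was at 59.5, 63.4 and 60.3 CPM in Control and at 63.5, 67.4 and 59.3 CPM in Cationorm (0.05 ± 0.07 SE). Sod2, the mitochondrial manganese enzyme, was at 106, 99.5 and 101 CPM in Control and at 95.8, 109 and 96.8 CPM in Cationorm (-0.02 ± 0.07 SE). Both overlapped between the groups. Their 95% intervals, -0.11 to 0.22 and -0.20 to 0.15, lie below that of Sod3 (0.30 to 0.79). Catalase (Cat), the peroxisomal enzyme, had a log2 fold change of 0.14 ± 0.08.

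The glutathione peroxidases showed the same contrast with a wider spread. Gpx3, the secreted plasma form, was at 79.6, 90.4 and 176 CPM in Control and at 269, 333 and 183 CPM in Cationorm. Its groups did not overlap, but Control 3 and Cationorm 3 were close. The log2 fold change was 1.18 ± 0.34 (SE), a 2.27-fold higher level with a 95% interval of 1.31 to 3.93 (edgeR adjusted p = 0.550, DESeq2 adjusted p = 0.291). It ran from 0.95 without Cationorm 2 to 1.62 without Control 3.

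Gpx4, which reduces lipid hydroperoxides in membranes, was at 226, 222 and 208 CPM in Control and at 179, 219 and 193 CPM in Cationorm. These overlapped, with a log2 fold change of -0.15 ± 0.09 (SE). Gpx1, the main cytosolic form, was at 8.43, 8.54 and 6.86 CPM in Control and at 8.06, 8.36 and 7.63 CPM in Cationorm (0.01 ± 0.14 SE). Gpx2, known from gut epithelium, had between 10 and 51 counts per library, at 0.250, 1.47 and 0.854 CPM in Control and 1.55, 0.292 and 0.479 CPM in Cationorm. Its interval of -1.97 to 1.66 is wide, with libraries of each group that differed several-fold. Rows for Gpx4 pseudogenes held between 12.9% and 15.7% of the Gpx4 count, and with them added, a choice made after seeing the data, the log2 fold change was -0.16.

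**Figure D3:**
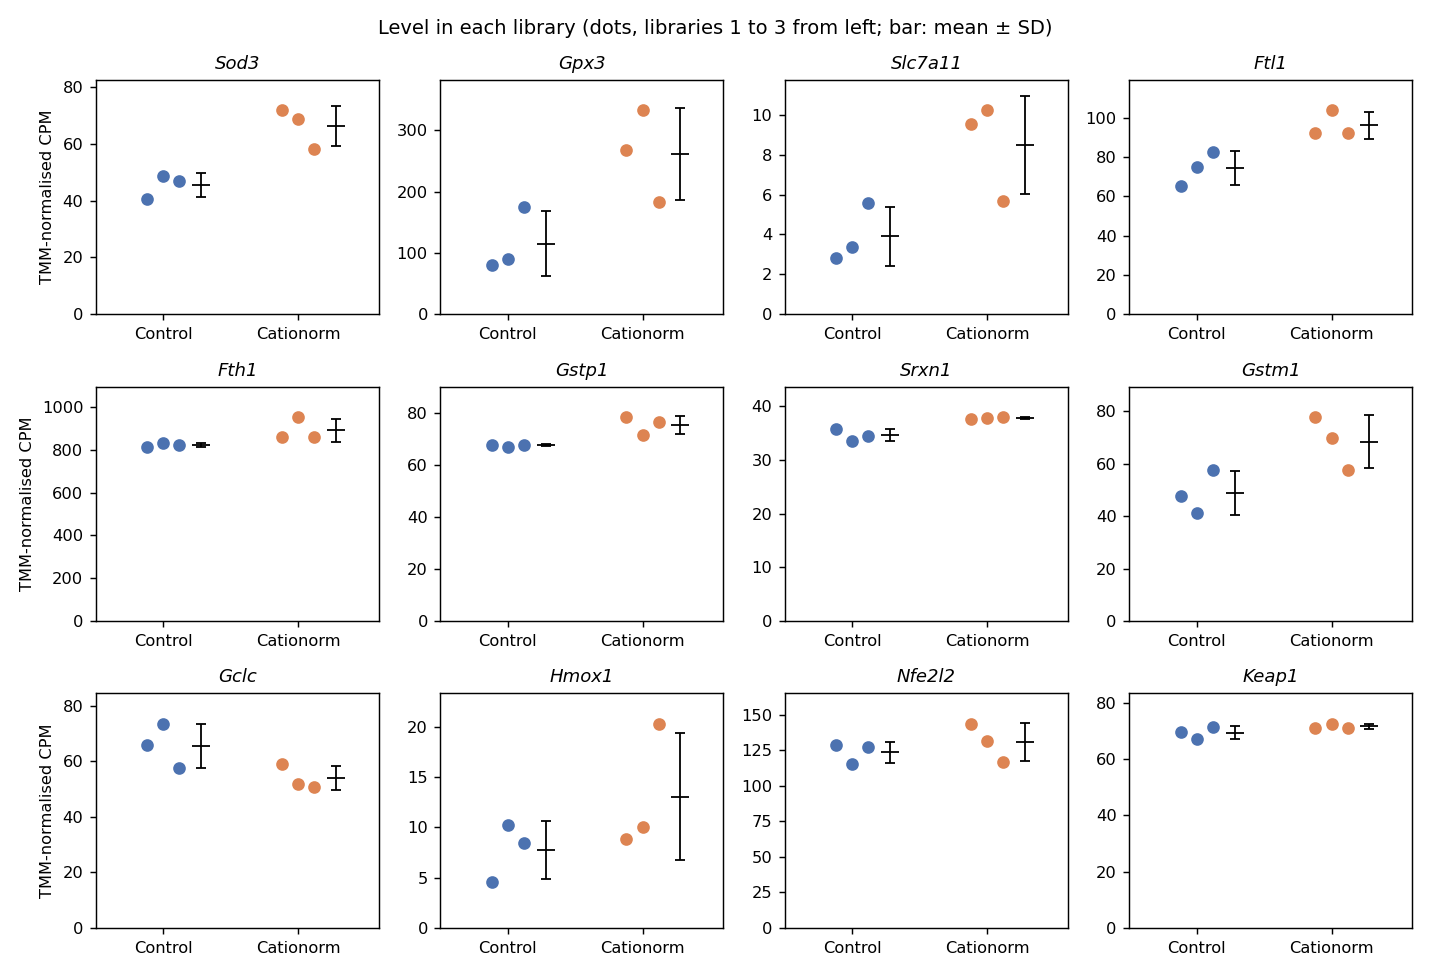
Level in each library for 12 of the genes (y axes, TMM-normalised CPM from 0), with Control in blue, Cationorm in orange, and the mean ± SD of 3 libraries beside each group. Sod3, Gpx3, Slc7a11, Ftl1, Fth1, Gstp1 and Srxn1 do not overlap between groups, Hmox1 has 1 high Cationorm library, and Nfe2l2 and Keap1 overlap.

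Set against each other, the 2 secreted members stood at a median of 0.86 (log2 fold change) and the 30 cellular members at 0.05, a difference of 0.81. Among the cellular members Slc7a11 (1.12) and Hmox1 (0.75) were also above Sod3, so a high value was not particular to the secreted enzymes. Within each library, the level of Sod3 relative to Sod1 was 0.682, 0.770 and 0.777 in Control and 1.13, 1.02 and 0.982 in Cationorm. The level of Gpx3 relative to Gpx4 was 0.352, 0.408 and 0.846 in Control and 1.4999, 1.52 and 0.949 in Cationorm. Neither ratio overlapped between the groups. A ratio within a library does not depend on library size.

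Prdx4 also carries a signal sequence. It was at 10.3, 13.6 and 13.7 CPM in Control and at 16.4, 13.3 and 13.4 CPM in Cationorm, with overlapping groups (0.20 ± 0.15 SE). Counted with the secreted members, it lowered the difference of medians to 0.50. In the deposited gene ontology terms, 8 members are annotated to the extracellular space or region (Txn1, Sod1, Sod3, Cat, Gpx3, Prdx4, Gstm1 and Fth1). Of these, 7 were higher, with a median log2 fold change of 0.17, against 0.04 for the 24 other members. Over all genes tested, the 1384 with such a term had a median of 0.06 and 59.4% higher, and those without it a median of 0.0020 and 50.5% higher.

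**Figure D4:**
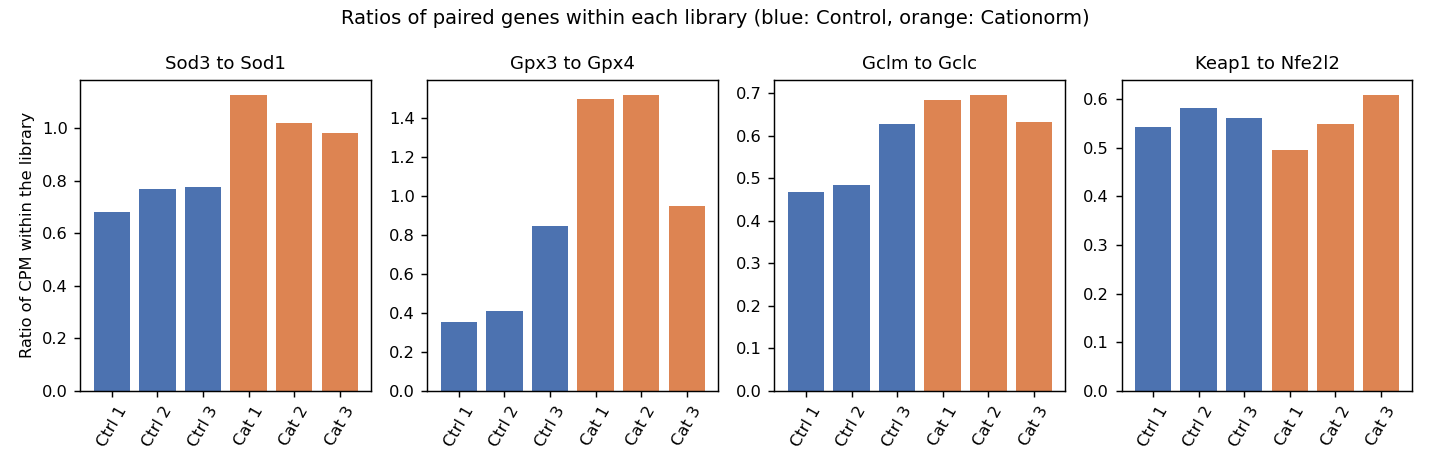
Ratio of CPM within each library (y axes from 0) for 4 gene pairs, with Control libraries in blue and Cationorm libraries in orange (x axis). The ratios of Sod3 to Sod1, Gpx3 to Gpx4 and Gclm to Gclc are higher in all 3 Cationorm libraries than in all 3 Control libraries, and the ratio of Keap1 to Nfe2l2 overlaps.

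Several marker lists of other cell types also differed between the groups, with library orders that matched the secreted members only in part. Beside the pigment and iris markers, the 8 smooth muscle and pericyte markers were all higher in Cationorm (median log2 fold change 0.78, 0 called by edgeR). Of these, DESeq2 called Myl9 (adjusted p = 2.66e-05) and Acta2 (adjusted p = 0.000594). The 8 markers summed to 189, 161 and 326 CPM in Control and to 433, 435 and 346 CPM in Cationorm, with none at 0 in any library. Control 3 was again the highest Control library, and Cationorm 3 the lowest Cationorm library, as for Gpx3. For Sod3 the match was partial, since Control 2 and not Control 3 was its highest Control library. The lowest Control library was Control 2 for the pigment and smooth muscle sums, and Control 1 for Sod3 and Gpx3. Lens markers (9 of 9 higher, median 0.99), skeletal muscle markers (9 of 9, median 0.44) and vascular endothelium markers (8 of 9, median 0.42) were also mostly higher in Cationorm. The lens sum was highest in Cationorm 3 (6240 CPM), the lowest Cationorm library for Sod3 and Gpx3. The skeletal muscle sum was lowest in Cationorm 1 (92.7 CPM), where Sod3 was highest. It was highest in Cationorm 2 (1705 CPM) and, within Control, in Control 3 (1019 CPM), as for Gpx3. Within Control it was lowest in Control 2 (110 CPM), unlike Gpx3. Corneal endothelium markers summed to between 1096 and 1156 CPM in Control and to between 1189 and 1335 CPM in Cationorm, with 5 of 6 higher and a median of 0.10. The 13 retina markers were all lower in Cationorm (median -0.93), at 8134, 7167 and 5467 CPM in Control and 2684, 2096 and 6665 CPM in Cationorm. The part of any of these cell types in the Sod3 and Gpx3 differences was not tested. The 9 corneal epithelium markers had a median of -0.03, and the 9 keratocyte markers a median of -0.09 with 2 higher. That keratocyte median hides opposite differences. Kera was lower without overlap between the groups (log2 fold change -0.83), and Lum was lower with overlap (-0.66). Ptgds was higher without overlap (0.999), with its libraries in the same order as the pigment and iris sum. The other keratocyte markers lay between -0.28 (Dcn) and 0.11 (Col1a1). The part of keratocytes in the Sod3 and Gpx3 differences was not tested either.

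**Figure D5:**
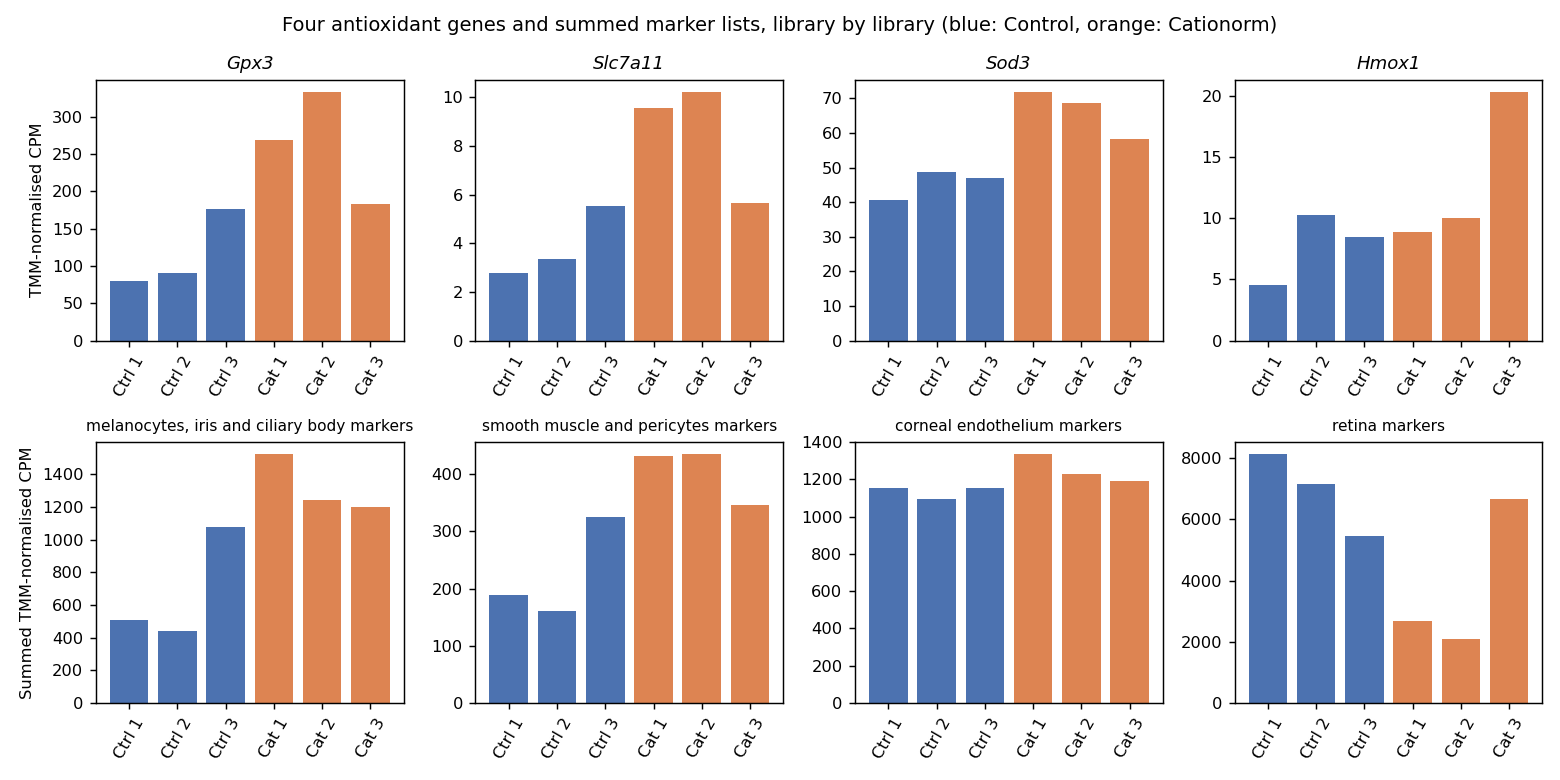
Level of Gpx3, Slc7a11, Sod3 and Hmox1 (top, CPM) and summed level of 4 marker lists (bottom, CPM) in each library (x axis), with Control in blue and Cationorm in orange and all y axes from 0. Gpx3 and Slc7a11 are high in the same libraries as the pigment and smooth muscle markers, whereas Hmox1 is highest in Cationorm 3, which is the lowest Cationorm library in those lists.

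The ferritin genes, which encode the iron storage shell and are induced by Nrf2, were both higher in every Cationorm library. Ftl1, the light chain, was at 65.5, 75.2 and 82.8 CPM in Control and at 92.4, 104 and 92.1 CPM in Cationorm. Its log2 fold change was 0.37 ± 0.10 (SE), a 1.29-fold higher level with a 95% interval of 1.10 to 1.52 (edgeR adjusted p = 0.550). Ftl1 has near-identical pseudogenes, whose rows held between 9.09% and 13.3% of its count, and adding them gave 0.37. An opposite-strand gene overlaps 26.49% of its exon sequence, so the value is uncertain. Fth1, the heavy chain, was at 813, 830 and 823 CPM in Control and at 860, 952 and 857 CPM in Cationorm. The gap was small, with a log2 fold change of 0.11 ± 0.06, and the Cationorm 2 library was the highest for both chains.

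Glutathione transferases conjugate glutathione to lipid aldehydes and foreign compounds. Gstm1 was at 47.7, 41.3 and 57.7 CPM in Control and at 77.8, 69.9 and 57.6 CPM in Cationorm. Its groups just overlapped, at Control 3 and Cationorm 3, and the log2 fold change was 0.48 ± 0.15 (SE). The summed pigment and iris markers given above were likewise highest in Cationorm 1 and lowest in Control 2, and their part in the Gstm1 difference was not tested. Gstp1 was at 68.0, 67.2 and 68.0 CPM in Control and at 78.6, 71.8 and 76.7 CPM in Cationorm (0.16 ± 0.06 SE), without overlap. Both belong to families with near-identical copies, between which the counting could split reads. A Gstp pseudogene row held between 6.40% and 8.76% of the Gstp1 count. With it added, a choice made after seeing the data, the Gstp1 log2 fold change was 0.16. The 2 most abundant members, Gsto1 and Gsta4, had log2 fold changes of -0.04 ± 0.07 and 0.03 ± 0.06 (SE), with 95% intervals of -0.19 to 0.11 and -0.12 to 0.17.

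Peroxiredoxins and the thioredoxin system lay close between the groups. Peroxiredoxins reduce peroxides with electrons from thioredoxin, and their 6 genes had log2 fold changes between -0.09 and 0.20, with 5 higher and groups that overlapped in each. The largest of the abundant ones was Prdx6, which reduces phospholipid hydroperoxides, at 650, 588 and 708 CPM in Control and 729, 784 and 694 CPM in Cationorm (0.18 ± 0.09 SE). Prdx1 and Prdx2 of the cytosol had values of 0.02 ± 0.07 and 0.08 ± 0.06, and Prdx3 and Prdx5, which act in mitochondria, 0.01 ± 0.07 and -0.09 ± 0.07. Prdx2 and Prdx5 overlap exons of genes on the opposite strand. Thioredoxin (Txn1) was at 222, 271 and 190 CPM in Control and at 216, 224 and 225 CPM in Cationorm (-0.04 ± 0.12 SE). Thioredoxin reductase (Txnrd1) was at 47.4, 58.3 and 59.3 CPM in Control and at 56.5, 55.8 and 60.7 CPM in Cationorm (0.07 ± 0.10 SE).

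The 6 members whose promoters held the antioxidant response core had log2 fold changes from 0.02 to 0.13 and a median of 0.07. The value was -0.0299 for Prdx1 without Cationorm 1, -0.00807 for Sod1 without Cationorm 2 and -0.0272 for Txnrd1 without Control 1, so no common direction can be read from these 6. The 20 other members with a promoter in the table ranged from -0.16 to 1.18 with a median of 0.05, and 13 of them were higher. Slc7a11 and Gpx3, with the largest differences, were in the second set, and for Sod3, Hmox1, Gclc, Gsr, Prdx6 and Gsta4 no promoter was searched. Elements outside the searched promoter stretch could not be seen. The split therefore does not separate Nrf2 targets from other members, and no conclusion on Nrf2 is drawn from it.

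Replicates differed little for most members. In 28 of 32 members the standard deviation was under 20% of the mean in both groups, and the 4 others were Gpx2, Hmox1, Gpx3 and Slc7a11. Cationorm 2 was the highest library for 10 members and Cationorm 1 for 9, while Control 3 was the highest for 0. Control 1 was the lowest library for 12 members and Control 2 for 9.

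Of 99 further genes of the pathway, 97 were in the table and 91 were tested, with 65 higher and 26 lower in Cationorm (median log2 fold change 0.09). None was called by edgeR or DESeq2. At an unadjusted p under 0.05 in the edgeR fit there were 10 higher, Slc3a2 among them, and 0 lower, beside 5.16% higher and 3.57% lower over all genes. Of all genes tested, 51.2% were higher. Mafk, a small Maf partner of Nrf2, had a log2 fold change of 0.29 ± 0.09 (SE). Of the NADPH supply, Pgd of the pentose phosphate pathway was at 0.14 ± 0.06 and mitochondrial Idh2 at 0.26 ± 0.11.

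Of the detoxification genes, the aldehyde dehydrogenase Aldh7a1 was at 36.4, 35.6 and 34.7 CPM in Control and at 42.1, 41.3 and 42.9 CPM in Cationorm (0.24 ± 0.06 SE). The export pump Abcc2 was at 0.250, 0.115 and 0.342 CPM in Control and at 1.05, 0.743 and 0.426 CPM in Cationorm, a log2 fold change of 1.62 ± 0.50 from few counts. Of 18 further glutathione transferases tested, 16 were higher, and microsomal Mgst1 was the 1 at that level (0.66 ± 0.26).

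Secreted antioxidants beyond the members had 4 of 5 tested genes higher and a median log2 fold change of 0.24. Ceruloplasmin (Cp), a copper ferroxidase of plasma, was at 26.4, 34.8 and 41.8 CPM in Control and at 58.9, 51.9 and 44.7 CPM in Cationorm (0.60 ± 0.18 SE), without overlap. Among sources of oxidants, the NADPH oxidase subunit Cyba was at 0.45 ± 0.17 and xanthine dehydrogenase (Xdh) at 0.22 ± 0.09. As for Gpx3 and Slc7a11, the libraries of the groups that lay closest to each other for Cp were Control 3 and Cationorm 3. Over all genes tested, these libraries were also the most alike of any pair (a chi-square statistic of 16.2 for each degree of freedom).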

How the data were processed

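The deposited table holds raw read counts per gene symbol for 6 libraries, per the file headers. Per the labels' protocols, TRIzol RNA enriched for mRNA went into TruSeq libraries. The submitters' processing notes name DESeq2 and the builds GRCm39 and mm39. Not given in the sources used here are the aligner, the counter, the annotation and whether strand was used. Columns were matched to samples by library name and groups taken from titles.

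Counts were filtered with filterByExpr (18804 of 35673 genes kept), scaled by TMM and tested with edgeR 4.0.16 (glmQLFit, glmQLFTest) in R 4.3.3, with Benjamini-Hochberg adjustment at 0.05 over all genes and no covariate. Standard errors come from the F statistic. DESeq2 1.42.0, run on all genes with a count, adjusted over 15449 genes, and limma 3.58.1 gave the voom fit. Alternatives were other scalings, filters and tests, the replicate number as a block, Prdx4 counted as secreted, library sizes without other tissues' markers, and each library left out. Replicate pairs differed by more than sampling noise (a chi-square statistic of 30.5 or more for each degree of freedom within groups). The pairs most alike lay across groups, Control 3 with Cationorm 3 (16.2) and Control 3 with Cationorm 2 (21.9). Lengths come from GENCODE M21 and promoters from RefSeq, both GRCm38, and no coordinate was taken from the count table.

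The members and lists were chosen with earlier results of these data known, and the Gclm to Gclc ratio after the counts had been seen. All members are named. Those with an unadjusted p under 0.05 or groups that do not overlap are given in every library, as are the regulators, the inducible targets and the families of the secreted enzymes. Other pathway genes are named at an unadjusted p under 0.05. A few further members are given in every library by choice after their values were seen.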

Additional observations from a re-analysis of the deposited data

How the results depend on the processing

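Without any 1 of the 6 libraries edgeR called between 0 and 350 genes and between 0 and 1 member. The highest count came without Cationorm 3 (350 genes, 335 of them lower, with Sod3 the 1 member). There were 8 genes called without Control 3 and 1 without Control 2, with 0 members. DESeq2 called 66 genes and 2 members. Sod3 had a log2 fold change between 0.47 and 0.63 without any 1 library and 0.54 with DESeq2, and its adjusted p over all alternatives ran from 0.00513 with DESeq2 to 0.862 without Cationorm 1. With Prdx4 counted as secreted, the difference of medians between secreted and cellular members was 0.50 (0.495 before rounding), in place of 0.81. Replicate numbers did not pair the libraries: the correlation of same-numbered deviations from the group mean was -0.18, -0.31 and -0.16, and no library correlated best with its own number. With the replicate number as a block, edgeR called 0 genes, Sod3 stood at 0.54 and Gpx3 at 1.25 (adjusted p = 0.699 for each).

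The direction of 20 members held in every alternative run, and 12 members, none above 0.16 in size, turned without some library. Their log2 fold changes without any 1 library ran from -0.0812 to 0.0586 for Gpx1, -1.14 to 0.459 for Gpx2, -0.0385 to 0.000117 for Gsr, -0.118 to 0.0211 for Gss and -0.0341 to 0.0624 for Gsta4. They ran from -0.00686 to 0.0926 for Nqo1, -0.0299 to 0.0538 for Prdx1, -0.0260 to 0.0530 for Prdx3, -0.00807 to 0.101 for Sod1, -0.103 to 0.00970 for Sod2, -0.150 to 0.0896 for Txn1 and -0.0272 to 0.126 for Txnrd1. The cause of these changes was not tested. The other scalings (DESeq2 size factors, upper-quartile factors), filters, voom and robust dispersion changed no call and turned no direction. Neither did library sizes without the retina, lens, pigment and iris, and skeletal muscle markers for Sod3 and Gpx3. That run changed only the scaling. Reads of Sod3 and Gpx3 from such tissue stayed in, so it cannot speak to their source. Between 20 and 26 members were higher without any 1 library. With 3 libraries in a group, differences as small as those of most members could not be separated from the spread.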
